A study of Mus musculus with 17 samples.

Results

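The genes described here encode 7 transcription factors tied to self-renewal and leukaemia: Myb, Myc, Meis1, Hoxa9, Mecom, Hhex and Hlf. Their loci were followed in ChIP-seq peak lists of RUNX1 and CHD7. A site was a stretch of the genome where peaks of the 8 lists of 1 antibody overlapped, merged into 1 interval. A site belonged to a gene when it overlapped the gene's body, or lay within 50 kb of either end, on the mm10 build. By this rule 32 of 21664 RUNX1 sites and 156 of 85223 CHD7 sites belonged to the 7 genes, which were 7 of 21887 protein-coding genes in the RefSeq table.

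All libraries came from the mouse 416B line of myeloid progenitors. As the labels' protocols state, every cell carried a tetracycline silencer (tTS) and the transactivator rtTA behind an Ef1alpha promoter. A second construct, behind a tetracycline-responsive element, either held the type A Cbfb-Myh11 cDNA (CM) joined by F2A to mCherry, or was the Control-ATG version without CM. There were 4 conditions with 2 replicates for each antibody: Control -Dox, Control +Dox, CM -Dox and CM +Dox. Doxycycline was given at 1 µg/ml for 24 hours where the label says so, so CM +Dox alone combined the fusion construct with its inducer. The level of the fusion protein was not analysed here, and the 6 other libraries are called libraries without CM by their labels only. The cells were expanded from selected single-cell clones, so a difference between the CM and Control-ATG constructs cannot be told apart from a difference between clones. The labels do not say that replicates were separate cultures, so the p-values below measure only the spread between these libraries.

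The 6 RUNX1 lists without CM held 12603 to 16163 peaks and the 2 CM +Dox lists 8140 and 9710. The CHD7 lists held 16323 to 37698 peaks without CM, against 33462 and 31688 with it. Read depth is unknown. The library labelled Control -Dox RUNX1 replicate 1 has peak names with a +Dox tag, which goes against its label. It was kept in its labelled group, and leaving it out changed neither the lost nor the gained RUNX1 count at the 7 genes in the main comparison. The other counts were not computed without it. Because scores cannot be compared between lists, each peak was given the percentile rank of its deposited score within its own list, with 100 for the highest and 0 where no peak was called. Ranks from lists of different length do not measure an amount of binding.

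RUNX1 binds DNA with its partner CBFB and is needed to form blood stem cells. CM joins CBFB to the tail of smooth muscle myosin heavy chain, holds RUNX1 more tightly than CBFB does, and arises from the chromosome 16 inversion of acute myeloid leukaemia. CHD7 is an ATP-dependent chromatin remodeller of the chromodomain helicase family. MEIS1 and HOXA9 bind DNA together, with PBX proteins, and drive myeloid leukaemia in mice when overexpressed. The other members act in stem and progenitor cells as a PR-domain zinc finger factor (Mecom), a homeodomain repressor (Hhex), proliferation factors (Myb and Myc) and a PAR bZIP factor (Hlf).

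Peaks reached the promoters of 2 of the 6 genes with an entry in the RefSeq promoter table, and these sequences are shown because RUNX1 was called over the Meis1 promoter in every library and over the Hhex promoter in the CM libraries alone. The table (GRCm38.p6, the assembly of mm10) matched all members but Myc, with 7 entries, 2 of them for Mecom. Each line gives the 250 bases before the transcript start that the table uses, which at Meis1 lies inside the gene body given below, 5′ to 3′ on the gene's strand, with the RUNX core motif TGTGGT in capitals.
Meis1, minus strand, 19018970 to 19019219 of chromosome 11: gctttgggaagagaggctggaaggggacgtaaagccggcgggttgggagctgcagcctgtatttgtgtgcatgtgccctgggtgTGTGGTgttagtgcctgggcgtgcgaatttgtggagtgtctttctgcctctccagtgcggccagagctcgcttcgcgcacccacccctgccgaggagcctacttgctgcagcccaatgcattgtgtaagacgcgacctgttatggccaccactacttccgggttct
Hhex, plus strand, 37434591 to 37434840 of chromosome 19: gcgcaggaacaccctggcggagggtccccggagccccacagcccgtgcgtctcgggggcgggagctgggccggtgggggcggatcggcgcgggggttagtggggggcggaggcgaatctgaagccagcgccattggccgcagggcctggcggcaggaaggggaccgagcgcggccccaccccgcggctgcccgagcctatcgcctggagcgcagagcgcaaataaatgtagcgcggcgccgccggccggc
The motif was searched as TGTGGT and its reverse complement ACCACA over 250 bases before to 50 after each start. It was found in 5506 of 32851 promoters (16.8%). Among the members it was found once, at Meis1, starting 166 bases before that start. The Meis1 promoter was overlapped by a RUNX1 peak in 8 of 8 libraries and by a CHD7 peak in 6. The Hhex promoter was overlapped by a RUNX1 peak in 4 libraries and by a CHD7 peak in 0. The other 5 entries were overlapped by no peak of either antibody.

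RUNX1 and CHD7 sites were spread unevenly over the 7 loci. Hhex had 8 RUNX1 and 31 CHD7 sites in a 106 kb window, which is 7.55 and 29.3 sites per 100 kb and the 97.4th and 99.3rd percentile among all protein-coding genes. Meis1 had 7 RUNX1 and 61 CHD7 sites over 239 kb, the 74.9th and 98.7th percentile. Myb had 5 and 16 sites, Myc 3 and 9, and Mecom, with the longest gene body, 7 and 33. Hlf had 2 RUNX1 and 4 CHD7 sites. Hoxa9 had 0 RUNX1 sites, as did 7011 genes (32.0%), and 2 CHD7 sites. The median gene had 1.21 RUNX1 and 3.89 CHD7 sites per 100 kb.

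Most RUNX1 sites at these genes recurred between libraries and most CHD7 sites did not, as was so over all sites. The RUNX1 lists ended at a p-value threshold of 1e-09 or 1e-07 and the CHD7 lists at 0.01. The part of these thresholds in the contrast between antibodies was not tested. Of the 32 RUNX1 sites, 8 (25.0%) were called in all 8 libraries and 6 (18.8%) in only 1, close to the 22.3% and 19.2% of all RUNX1 sites. Of the 156 CHD7 sites, 6 (3.85%) were called in all 8 libraries and 102 (65.4%) in only 1, against 5.69% and 59.5% of all CHD7 sites. At Meis1, 45 of the 61 CHD7 sites came from a single library, and at Hhex 20 of the 31. RUNX1 sites lay in the body of a member in 19 of 32 cases, CHD7 sites in 100 of 156. A CHD7 site, of any library, overlapped 27 of the 32 RUNX1 sites (84.4%), against 74.3% of all RUNX1 sites.

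The number of member sites in a library moved with the length of its list. RUNX1 lists called 17, 21, 18, 18, 19 and 24 member sites without CM and 12 and 16 in CM +Dox. As a share of all peaks in the list this was 0.128% to 0.159% without CM, and 0.147% and 0.165% in CM +Dox. CHD7 lists called 20, 31, 20, 58, 21 and 50 sites without CM and 51 and 58 with it. The CHD7 share was 0.118% to 0.182% of peaks without CM, and 0.161% and 0.193% in CM +Dox. For RUNX1 the number of sites was lowest in CM +Dox replicate 1, while the share of peaks in CM +Dox lay within or just above the range of the other 6 libraries.

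**Figure D1:**
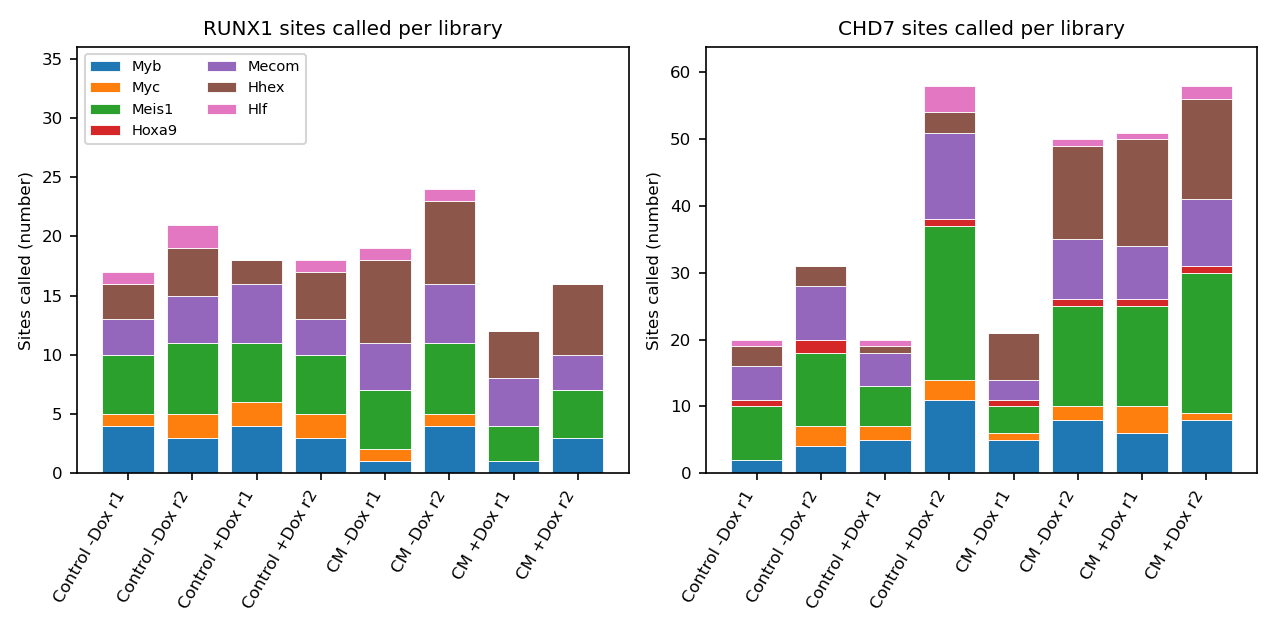
Stacked bars give the number of RUNX1 sites (left) and CHD7 sites (right) called at each of the 7 genes in each library (r1 and r2 are replicates). The RUNX1 bars are lowest in CM +Dox, at 12 and 16 sites, and the brown Hhex part of the CHD7 bars is taller in the 4 libraries of the CM construct, at 7, 14, 16 and 15 sites against 1 to 3 in the 4 control libraries. The Hhex part counts the whole window, including sites over the neighbouring gene Kif11.

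The main comparison set the 2 CM +Dox libraries against the 6 libraries without CM. With the fusion induced, most of the stable RUNX1 sites at these genes were still called, those at Meis1 stood lower in their lists, and 1 site beside Myc was missing. A site was counted as lost when all 6 libraries without CM called it and the CM +Dox pair did not. Of 11 member sites called in all 6, 1 (9.09%, Myc -1.9 kb) was lost, against 27.9% of all 8531 such sites. Both CM +Dox libraries called 8 of the 11 (72.7%), against 56.7%. With only 11 sites chosen by gene, this difference from the genome was not tested.

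Within replicate numbers more sites were absent: 2 of 11 within number 1 (Meis1 +49.3 kb and Myc -1.9 kb), against 40.9% of all sites so compared. Within number 2 there were 4 of 16 (Mecom +275.5 kb, Meis1 +56.3 kb, Hlf +96.1 kb and Myc -1.9 kb), against 37.0%. A gained RUNX1 site is one that the CM +Dox pair called and the 6 others did not. There were 0 among the 11 member sites called by the pair, against 2.65% of all such sites. When every list was held to its 8140 highest peaks, 0 of 7 sites were lost and 2 of 8 were gained (Myb +77.2 kb and Hhex +1.8 kb), against 23.9% and 14.6% of all sites. Distances are from the gene's start, positive into the gene and negative before it. For Myc, which has no strand in the table, they are from the lower-coordinate end.

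By rank, 6 of the 11 RUNX1 sites stood lower in both CM +Dox libraries than in any of the 6 others, a share of 54.5% beside 52.8% of all sites. They were 4 sites at Meis1, 1 at Mecom and the Myc site. In the other direction, 3 of the 11 sites called in both CM +Dox libraries stood higher than in the other 6 (27.3%, against 25.3%). These were Myb +77.2 kb, Hhex -0.2 kb and Hhex +1.8 kb. Both shares were near those of the genome. The two-sided exact permutation test over 28 choices of 2 from 8 libraries gave its smallest possible p, 0.0357, at 7 of 26 member sites called in 2 or more libraries, against 29.1% of 17508. After Benjamini-Hochberg adjustment over all 17508 sites the smallest possible p became 0.123, so no RUNX1 site passed 0.05. Same-numbered RUNX1 libraries were correlated, and the p-values of single sites below do not take this into account. With choices kept within replicate numbers, the exact permutation p of each of these 7 sites was 0.0625 (adjusted p = 0.173), the smallest possible over 16 choices.

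CHD7 sites that recurred at these genes were kept. All 6 CHD7 sites called in the 6 libraries without CM were called in both CM +Dox libraries, against 84.0% of 5775 such sites. None was lost, against 3.65%, and in none was the rank lower in CM +Dox than in all 6 others, against 9.11%. One site, Hhex -34.2 kb, was gained, of 20 called in both CM +Dox libraries (5%, against 8.26%). It lies over Kif11, a mitotic kinesin gene next to Hhex. Ranks were higher in CM +Dox than in all 6 others at 4 of 20 sites (20%, against 22.9%): Myb -25.5 kb and Hhex -34.2, +1.0 and +13.7 kb. The exact permutation test reached its smallest p of 0.0357 at 2 of 54 CHD7 sites, Hhex -34.2 and +1.0 kb, against 8.70% of 34512. The adjusted p of both was 0.411. Calls by the CM +Dox pair alone, as at Hhex -34.2 kb, always give this smallest p, so it adds no support there.

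The 4 libraries of the CM construct, with or without doxycycline, were also set against the 4 control libraries, a comparison added after the data had been seen. In a two-sided exact permutation test over 70 choices of 4 from 8, the smallest p, 0.0286, was reached at 3 of 26 RUNX1 member sites, all at Hhex (11.5%, against 10.5% of all sites tested). For CHD7 it was reached at 5 of 54 (9.26%, against 4.41%), which were Hhex -15.0, +1.0 and +13.7 kb, Myc -1.8 kb and Hoxa9 -30.0 kb. The smallest adjusted p over all sites was 0.271 for RUNX1 and 0.648 for CHD7. RUNX1 at Hhex -0.2 and +1.8 kb and CHD7 at Hhex -15.0 and +1.0 kb were called in all 4 CM libraries and no control library. Such calls always give the smallest p of 0.0286 in this test, so it adds no support at these sites. Each construct was carried by selected clones, so construct and clone cannot be told apart in this comparison.

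**Figure D2:**
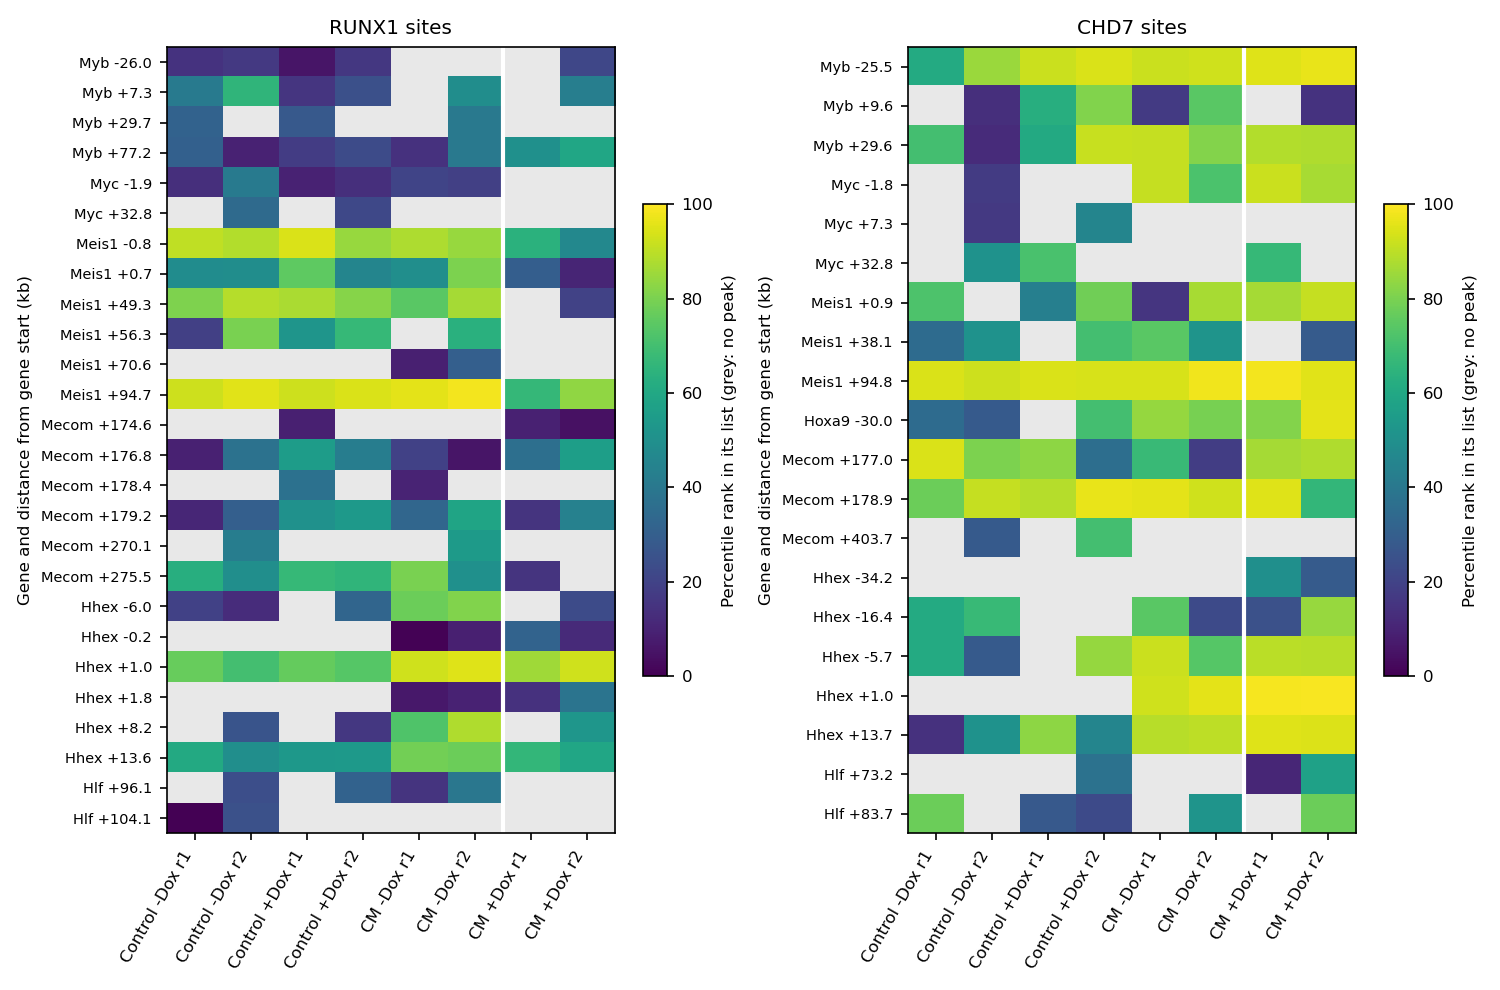
Each cell gives the percentile rank of a named site (rows, with its distance from the gene's start in kb) in 1 library (columns), for RUNX1 on the left and CHD7 on the right, with grey for no peak, and the white line sets off CM +Dox. The Meis1 RUNX1 rows are darker or grey to the right of the line, and the row of CHD7 at Hhex +1.0 kb is filled in the 4 CM libraries only.

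Meis1 had the 3 RUNX1 sites with the highest mean rank without CM among the 7 genes, and all 3 ranked lower in CM +Dox. Meis1 (chromosome 11, 18880428 to 19019651, minus strand) encodes the TALE homeodomain partner of HOXA9. All 4 of its RUNX1 sites called in the 6 libraries without CM ranked lower in CM +Dox, as 52.8% of all such sites did. Of the 4, 3 were still called in both CM +Dox libraries, against 56.7% of all such sites. CHD7 at the same locus had sites with higher and with lower mean ranks in CM +Dox.

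The highest-ranked RUNX1 site lay inside the gene at +94.7 kb (18924582 to 18925293). Its ranks were 92.3 and 95.7 for Control -Dox, 92.4 and 94.4 for Control +Dox, 95.8 and 98.1 for CM -Dox, and 66.7 and 83.5 for CM +Dox. The 2 groups did not overlap, and the difference in mean rank was -19.7 (two-sided exact permutation test over 28 choices, p = 0.0357, adjusted p = 0.123). CHD7 was called there (+94.8 kb) in all 8 libraries. Its ranks were 94.3, 92.3, 94.2, 93.9, 94.1 and 97.8 without CM and 98.3 and 95.5 in CM +Dox. Thus at this site the CM +Dox libraries were the lowest for RUNX1, while for CHD7 they lay within or just above the range of the others (difference 2.44, exact permutation p = 0.107).

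A second site inside the gene, at +49.3 kb (18969952 to 18970833), had the largest difference of all named RUNX1 sites. Its ranks were 80.6 and 88.9 for Control -Dox, 87.2 and 81.7 for Control +Dox, 74.3 and 86.4 for CM -Dox, and 0 and 19.6 for CM +Dox. It was not called in CM +Dox replicate 1 and stood near the bottom of the list in replicate 2, a difference of -73.4 (exact permutation p = 0.0357, adjusted p = 0.123). Without CM +Dox replicate 2 it would count as lost. CHD7 was called at this interval in few libraries: 1 for CHD7 +49.2 kb and 2 for CHD7 +48.9 kb. A neighbouring RUNX1 site at +56.3 kb had ranks of 18.9 and 79.7 for Control -Dox, 52.1 and 67.0 for Control +Dox, 0 and 63.4 for CM -Dox, and 0 and 0 for CM +Dox. It was absent from both CM +Dox libraries and from 1 CM -Dox library, so it was not counted as lost (exact permutation p = 0.179). Leaving out CM -Dox replicate 1 would count it.

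Around the start of Meis1 there were 2 more sites. At -0.8 kb (19020309 to 19020660) the RUNX1 ranks were 90.3 and 88.4 for Control -Dox, 94.5 and 84.7 for Control +Dox, 87.6 and 84.6 for CM -Dox, and 64.0 and 46.7 for CM +Dox. Both CM +Dox values lay below the other 6, with a difference of -33.0 (exact permutation p = 0.0357, adjusted p = 0.123). At +0.7 kb (19018764 to 19019166), over the promoter sequence given above, the ranks were 48.8 and 49.1, 75.2 and 45.7, 49.4 and 80.3, and 29.9 and 10.2 in the same order. The difference of -38.0 was within what another choice of libraries gave (exact permutation p = 0.0714, adjusted p = 0.200). CHD7 over the promoter (+0.9 kb) went the other way in value, with ranks of 72.2, 0, 43.0, 78.3, 15.3 and 87.1 without CM and 86.4 and 91.2 in CM +Dox. Those groups overlapped (exact permutation p = 0.179).

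Equal list lengths bear on these ranks, because the CM +Dox lists were shorter. With 8140 peaks in every RUNX1 list, the differences were -17.7 at +94.7 kb, -69.4 at +49.3 kb and -29.7 at -0.8 kb, each with an exact permutation p of 0.0357 and an adjusted p of 0.0947. At the promoter site the difference was then -14.6 and the groups overlapped (exact permutation p = 0.607). CHD7 had lower mean ranks in CM +Dox at other places in the gene. At +38.1 kb its ranks were 34.8, 50.9, 0, 70.2, 74.3 and 51.8 without CM and 0 and 28.7 in CM +Dox (difference -32.6, exact permutation p = 0.143). At +56.6 kb the difference was -10.9 (exact permutation p = 0.571). At both sites the groups overlapped. Other CHD7 sites of the locus had higher mean ranks in CM +Dox. At -4.9 kb the difference was 42 (exact permutation p = 0.107) and at +54.6 kb 35.7 (exact permutation p = 0.0714). At +92.2 kb it was 20.1 (exact permutation p = 0.429). Each of these was called in 4 libraries, and the groups overlapped there too. The remaining RUNX1 sites were +70.6 kb, called only in CM -Dox and in both of its libraries, and +38.0 kb, called in 1 library.

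**Figure D3:**
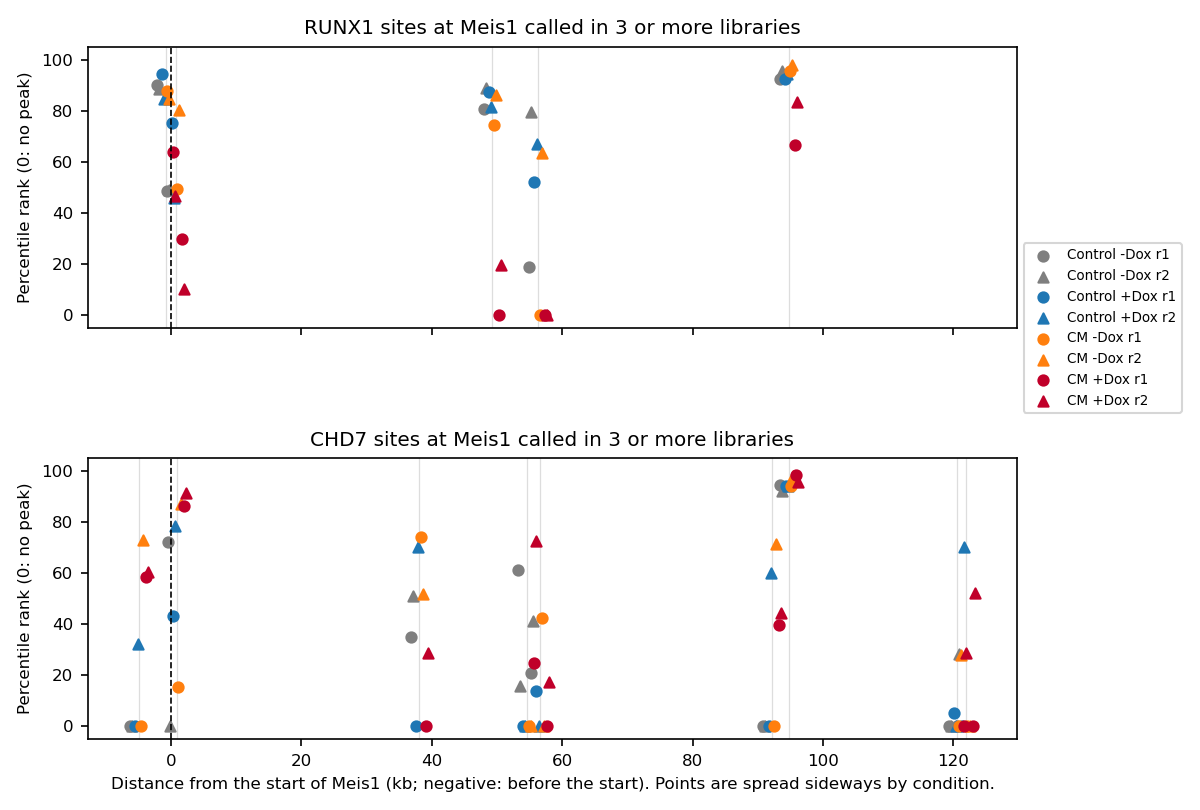
Points give the percentile rank of each Meis1 site called in 3 or more libraries (vertical axis, 0 for no peak) against its distance from the start of Meis1 in kb, with colours for conditions and shapes for replicates. In the upper RUNX1 panel the red CM +Dox points are the lowest at each site, tied with 1 CM -Dox point at +56.3 kb, whereas in the lower CHD7 panel they are among the highest at +0.9 and +94.8 kb and among the lower at +38.1 kb.

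Hoxa9 had no RUNX1 peak in any of the 8 libraries. Hoxa9 (chromosome 6, 52223097 to 52227370) encodes the homeodomain factor that pairs with MEIS1, and its window covers most of the HOXA cluster from Hoxa3 to Hoxa13 and the lncRNA gene Hottip. CHD7 was called at -30.0 kb (52256924 to 52257748), beside Hoxa13, in 7 of 8 libraries. Its ranks were 34.8 and 28.2 for Control -Dox, 0 and 70.2 for Control +Dox, 84.0 and 79.5 for CM -Dox, and 81.5 and 95.9 for CM +Dox. The 4 libraries of the CM construct lay above the 4 control libraries whether or not doxycycline was given. The difference between constructs was 51.9 (exact permutation test over 70 choices, p = 0.0286, adjusted p = 0.648). The other CHD7 site, at +5.6 kb, was called in 1 library.

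Mecom (chromosome 3, 29951296 to 30509759) encodes the EVI1 and MDS1-EVI1 zinc finger proteins, and all 7 of its RUNX1 sites lay inside its long gene body. RUNX1 at 1 of its 3 stable sites ranked lower in CM +Dox, and the other 2 were kept. At +275.5 kb (30234046 to 30234381) the ranks were 62.5 and 49.5 for Control -Dox, 67.1 and 65.5 for Control +Dox, 79.8 and 50.1 for CM -Dox, and 15.2 and 0 for CM +Dox. The groups did not overlap (difference -54.8, exact permutation p = 0.0357, adjusted p = 0.123). With equal list lengths they did, with a difference of -27.2 (exact permutation p = 0.214). Without CM +Dox replicate 1 the site would count as lost. CHD7 was called there in 1 library, CM +Dox replicate 1.

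The 2 kept Mecom sites lay close together. At +179.2 kb the RUNX1 ranks were 10.9 and 30.2 for Control -Dox, 50.7 and 53.9 for Control +Dox, 33.2 and 58.4 for CM -Dox, and 15.2 and 43.9 for CM +Dox. At +176.8 kb, a merged interval of 2549 bases, they were 9.09 and 37.8, 55.4 and 42.2, 19.2 and 5.52, and 36.7 and 56.1. Both sites showed overlapping groups. With equal list lengths they overlapped at +179.2 kb, while at +176.8 kb the CM +Dox ranks of 36.7 and 47.6 lay above a highest other value of 25.1 (difference 36.2, exact permutation p = 0.0357, adjusted p = 0.0947). CHD7 was called over both in all 8 libraries, with ranks from 66.2 to 96.6 at +178.9 kb and from 18.0 to 94.2 at +177.0 kb. RUNX1 at +174.6 kb was called by the CM +Dox pair and by 1 control library, with ranks of 9.33 or less. The other 3 RUNX1 sites at Mecom were called in 1 or 2 libraries.

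Hhex, which encodes the haematopoietically expressed homeobox repressor (chromosome 19, 37434841 to 37440731, plus strand), had several sites that were called in the 4 libraries of the CM construct, with and without doxycycline, and in none of the control libraries. For RUNX1 there were 2 such sites, Hhex -0.2 and +1.8 kb, of 10 member sites called in all 4 CM libraries (20%), against 1.66% of 5907 sites. For CHD7 there were also 2, Hhex -15.0 and +1.0 kb, of 14 (14.3%), against 5.81% of 8574. The reverse pattern, all 4 control libraries and no CM library, was found at 0 of 14 RUNX1 and 0 of 6 CHD7 member sites, against 3.81% and 2.00%.

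The Hhex promoter site at -0.2 kb (37434434 to 37434908) covers the sequence printed above. Its RUNX1 ranks were 0 in each of the 4 control libraries, 0.675 and 8.78 in CM -Dox, and 32.0 and 12.1 in CM +Dox. At +1.8 kb (37436505 to 37436823) they were 0 in the 4 control libraries, 6.35 and 9.68 in CM -Dox, and 14.4 and 38.3 in CM +Dox. At both sites the CM +Dox values were the highest, the CM -Dox values low, and the control values absent. The differences of CM +Dox from the other 6 were 20.4 and 23.7, each with an exact permutation p of 0.0357 and an adjusted p of 0.123. Between constructs they were 13.4 and 17.2 (exact permutation test over 70 choices, p = 0.0286, adjusted p = 0.271). With equal list lengths the pattern over all 4 CM libraries ended: -0.2 kb was called in CM +Dox replicate 1 alone (difference 16, exact permutation p = 0.25) and +1.8 kb in the CM +Dox pair alone (difference 20.4, exact permutation p = 0.0357, adjusted p = 0.0947). No peak at either site reached the median RUNX1 score of 29.1 over the pooled lists.

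The strongest Hhex site, inside the gene at +1.0 kb (37435557 to 37436054), was called by RUNX1 in all 8 libraries. Its RUNX1 ranks were 76.6 and 70.3 for Control -Dox, 76.5 and 73.7 for Control +Dox, 92.9 and 95.3 for CM -Dox, and 85.9 and 92.7 for CM +Dox. All 4 CM-construct values lay above all 4 control values (difference 17.4, exact permutation p = 0.0286, adjusted p = 0.271). CM +Dox did not stand apart from the other 6 libraries there (difference 8.42, p = 0.429 in the exact permutation test). CHD7 at the same place (37435636 to 37436044) was not called in any control library, and had ranks of 92.6 and 95.9 in CM -Dox and 98.6 and 99 in CM +Dox. CHD7 thus had no call in the controls and a place near the top of the list in the CM libraries, a difference of 96.5. Such calls always give the smallest exact permutation p over 70 choices, 0.0286 (adjusted p = 0.648), so this p adds no support.

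Sites beside the gene showed the same order of constructs less evenly. RUNX1 at +13.6 kb, past the gene's end, had ranks of 60.9 and 49.5 for Control -Dox, 53.2 and 53.9 for Control +Dox, 78.8 and 77.4 for CM -Dox, and 66.3 and 59.0 for CM +Dox. Its CM -Dox libraries ranked above all 6 others. CHD7 at +13.7 kb had ranks of 14.4 and 50.9, 82.9 and 45.5, 89.2 and 90.1, and 95.2 and 94.9 in the same order of conditions. There the 4 CM libraries were again the highest (difference 43.9, exact permutation p = 0.0286, adjusted p = 0.648), with the 2 CM +Dox libraries above the rest.

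At +8.2 and -6.0 kb RUNX1 ranked highest in CM -Dox. The ranks at +8.2 kb were 0 and 26.1 for Control -Dox, 0 and 16.3 for Control +Dox, 72.5 and 88.1 for CM -Dox, and 0 and 52.6 for CM +Dox. At -6.0 kb they were 19.4 and 12.6, 0 and 32.8, 77.5 and 80.9, and 0 and 22.8. CM +Dox replicate 1 called neither site, and its values overlapped those of the controls. CHD7 at -5.7 kb was called in every library except Control +Dox replicate 1, with ranks of 73.6 to 91.8 in the 4 CM libraries. CHD7 at +8.1 kb was called only in the CM construct, with ranks of 84.0 and 90.1 in CM -Dox and 0 and 77.5 in CM +Dox. CHD7 at -15.0 kb, over Kif11, had ranks of 57.5 and 96.4 in CM -Dox, 49.7 and 94.6 in CM +Dox, and 0 in the controls. The gained CHD7 site at -34.2 kb had ranks of 49.7 and 28.7 in CM +Dox and was called in no list once each was held to its 16323 highest peaks.

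**Figure D4:**
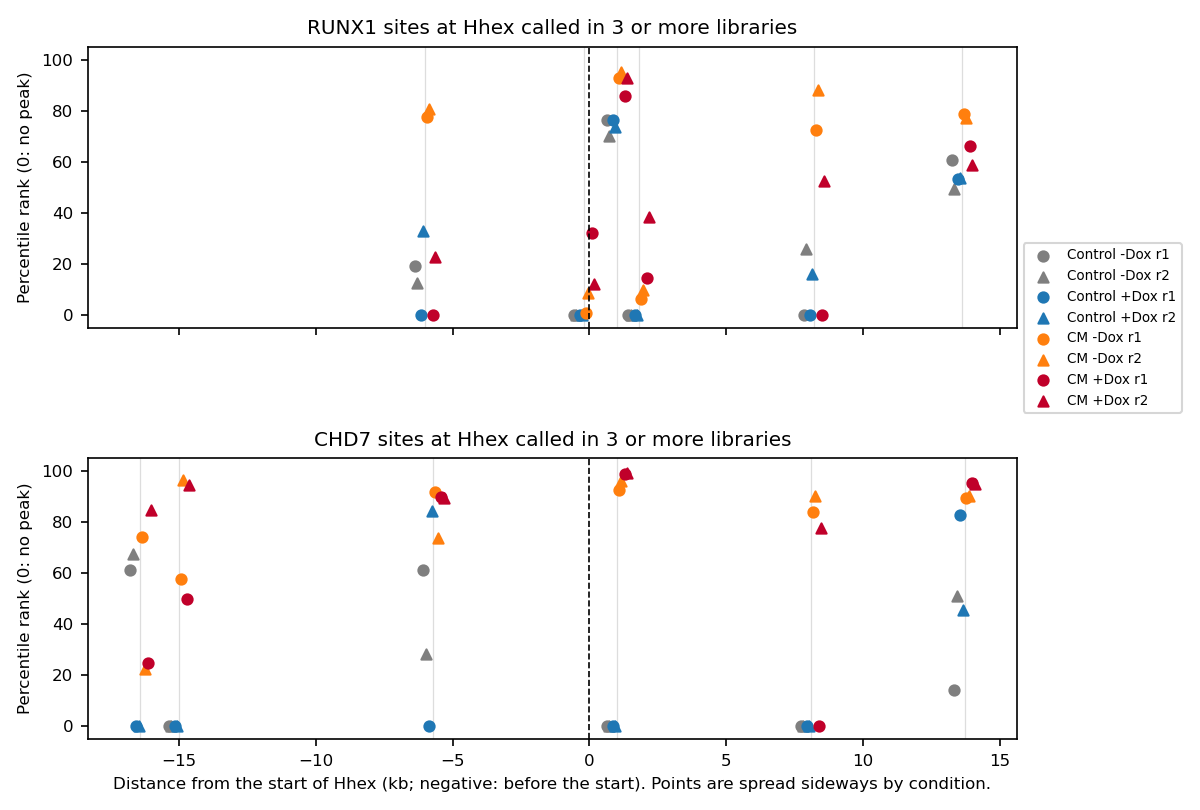
Points give the percentile rank of each Hhex site called in 3 or more libraries (vertical axis, 0 for no peak) against its distance from the start of Hhex in kb, with colours for conditions and shapes for replicates. At +1.0 kb the CM points (orange and red) lie above the control points (grey and blue) in both panels, and the CHD7 control points there are at 0.

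Myb (chromosome 10, 21124930 to 21160984, minus strand) encodes a factor needed for progenitor proliferation. It had 1 RUNX1 site called in every library, 3 in 3 to 6 libraries and 1 in a single library. The stable site, at +77.2 kb (21083591 to 21083911), lies past the far end of Myb, between Myb and Ahi1. Its ranks were 30.6 and 9.76 for Control -Dox, 17.7 and 22.8 for Control +Dox, 14.3 and 40.6 for CM -Dox, and 50.2 and 59.2 for CM +Dox. Both CM +Dox ranks lay above the other 6 (difference 32.1, exact permutation p = 0.0357, adjusted p = 0.123). With equal list lengths it was called only in CM +Dox, at ranks of 50.2 and 51.4. When only scores from the pooled median upwards were used, the groups overlapped (difference 12.9, exact permutation p = 0.250). CHD7 at +77.1 kb was called in 3 libraries, with ranks of 33.9 in CM -Dox replicate 2 and 97.0 and 10.2 in CM +Dox.

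Inside Myb, RUNX1 at +7.3 kb had ranks of 41.1 and 65.4 for Control -Dox, 15.5 and 24.6 for Control +Dox, 0 and 49.1 for CM -Dox, and 0 and 42.9 for CM +Dox. The replicates of each CM condition disagreed, with replicate 1 uncalled. RUNX1 at +29.7 kb was called in 3 libraries without CM, at ranks of 28 to 40.6. Before the gene, RUNX1 at -26.0 kb, over the lncRNA gene Gm33619, had ranks of 14.7 and 16.5, 5.81 and 16.3, 0 and 0, and 0 and 21.4.

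CHD7 was called in all 8 libraries at 2 Myb sites. At -25.5 kb, over the lncRNA genes Gm40608 and Gm33619, the CHD7 ranks were 61.3 and 85.1 for Control -Dox, 91.8 and 94.4 for Control +Dox, 91.8 and 92.9 for CM -Dox, and 95.2 and 96.8 for CM +Dox. CM +Dox had the highest ranks, but by less than the spread of the other 6 (difference 9.78, exact permutation p = 0.286). At +29.6 kb, inside the gene, the CHD7 ranks were 12.2 to 91.7 without CM and 88.4 and 87.9 with it. CHD7 at +9.6 kb had ranks of 0 and 13.5, 62.7 and 81.1, 17 and 74.5, and 0 and 14.7 in the order of conditions above.

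Myc (chromosome 15, 61985341 to 61990361) encodes the bHLH leucine zipper factor of cell growth, and its nearest RUNX1 site was the lost one. At -1.9 kb (61983273 to 61983662) the RUNX1 ranks were 13.6 and 40.9 for Control -Dox, 9.46 and 13.4 for Control +Dox, 20.6 and 19.1 for CM -Dox, and 0 and 0 for CM +Dox. Each of the 6 libraries without CM called it, low in its list, and CM +Dox had no peak there (difference -19.5, exact permutation p = 0.107, adjusted p = 0.260). It was lost also among peaks with a score of at least 9, but with equal list lengths, or with scores from the pooled median upwards, it was called in no library. CHD7 over the same place (-1.8 kb, 61983184 to 61983885) had ranks of 0 and 17.2 for Control -Dox, 0 and 0 for Control +Dox, 91.1 and 71.8 for CM -Dox, and 91.9 and 86.9 for CM +Dox.

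CHD7 at that Myc site was thus high in all 4 CM libraries and absent or low in the 4 controls, a difference of 81.1 (exact permutation p = 0.0286, adjusted p = 0.648). The RUNX1 ranks of CM -Dox at the same place lay within the control range. Farther from Myc, RUNX1 at +32.8 kb was called in 2 control libraries, at 34.6 and 21.7, and RUNX1 at +7.2 kb in 1. CHD7 at +32.8 kb was called in 3 libraries, at ranks of 50.9, 71.4 and 67.1, with no order by condition.

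Hlf (chromosome 11, 90336535 to 90390917), the gene of a PAR bZIP factor of blood stem cells, had no RUNX1 site inside its body. Its 2 RUNX1 sites lay past its far end, the farther of them at the edge of the window. At +96.1 kb the ranks were 0 and 23.9 for Control -Dox, 0 and 31.5 for Control +Dox, 15.0 and 39.7 for CM -Dox, and 0 and 0 for CM +Dox. At +104.1 kb it was called only in Control -Dox, at 0.0357 and 24.8. Neither had a CHD7 peak over it. CHD7 at +83.7 kb had ranks of 77.5 and 0, 27.8 and 22.6, 0 and 51.8, and 0 and 77.5, with replicates as far apart as conditions. CHD7 at +73.2 kb was called in Control +Dox replicate 2 and in both CM +Dox libraries, at 37.6, 10.6 and 57.4.

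Doxycycline without the fusion and the uninduced construct were compared 2 libraries against 2, by calls alone, because the smallest exact p of such a comparison cannot pass 0.05. Doxycycline in control cells gave no RUNX1 site called in both Control +Dox and neither Control -Dox library (0 of 14, against 1.39%). The reverse was found at 1 of 16, Hlf +104.1 kb (6.25%, against 3.16%). For CHD7 it was 2 of 11 (Myb +7.2 and +2.8 kb, against 9.56%) and 2 of 12 in reverse (Meis1 +54.6 and Hhex -16.4 kb, against 9.76%).

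Of member sites called in both CM -Dox libraries, 3 of 17 RUNX1 sites were called in neither Control -Dox library (17.6%, against 9.54%). They were Meis1 +70.6 kb and Hhex -0.2 and +1.8 kb. For CHD7 there were 4 of 17 (23.5%, against 18.9%), Myb +7.2 kb and Hhex -15.0, +1.0 and +8.1 kb. Called in Control -Dox and not in CM -Dox were 2 of 16 RUNX1 sites (12.5%, against 6.99%), Myb -26.0 and Hlf +104.1 kb, and 1 of 12 CHD7 sites (8.33%, against 8.94%), Meis1 +54.6 kb. Within the CM construct, which shares its CM -Dox libraries with that comparison, 1 of 11 RUNX1 sites was called in CM +Dox but not in CM -Dox, Mecom +174.6 kb (9.09%, against 6.06%). In reverse there were 3 of 17 (17.6%, against 35.4%), Meis1 +70.6 kb, Hlf +96.1 kb and Myc -1.9 kb. For CHD7 there were 3 of 20 in CM +Dox but not in CM -Dox (15.0%, against 15.1%), Meis1 +54.6, Hlf +73.2 and Hhex -34.2 kb, and 0 of 17 in reverse (against 10.9%).

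Whether CHD7 sat at the RUNX1 sites was asked at the 11 member sites called by RUNX1 in all 6 libraries without CM. CHD7 was called at 5 of them in each Control -Dox library, at 6 and 7 in Control +Dox, at 7 and 9 in CM -Dox, and at 9 in each CM +Dox library. The libraries with 9 had CHD7 lists of 37698 (CM -Dox replicate 2), 33462 and 31688 peaks (CM +Dox). The others held 16323 to 32448 peaks, and the part of list length in these counts was not tested. The CM +Dox share of 81.8% equalled the highest share without CM and lay above the other 5. Over all 8531 such sites the CM +Dox shares were 42.6% and 55.6%, against 48.7% to 69.3% without CM. At the 26 member sites called in 2 or more RUNX1 libraries, CHD7 was called at 15 and 18 in CM +Dox (57.7% and 69.2%) and at 10 to 16 in the 6 others (38.5% to 61.5%). Over all 17508 such sites the shares were 37.1% and 49.1% in CM +Dox and 38.6% to 58.9% in the others.

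Seen gene by gene, a RUNX1 site called in both replicates was present at 6 of the 7 members in Control -Dox, 5 in Control +Dox, 6 in CM -Dox and 4 in CM +Dox. The genes without one in CM +Dox were Hoxa9, Myc and Hlf. Over all protein-coding genes the numbers were 12205, 11697, 12558 and 10048. For CHD7 the members with such a site numbered 5, 5, 6 and 7 in the same order, and all genes 11123, 10740, 11610 and 12161.

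Related genes outside the 7 were taken as 40 genes in 5 lists of partners, family members and cofactors, all of which matched the RefSeq table. Their windows held 127 RUNX1 sites, of which 50 were called in all 6 libraries without CM and 18 of these were lost (36%, against 27.9% of all sites). Of 42 sites called in the CM +Dox pair, 2 were gained, at Sox4 and Hmga2, against 2.65% of all such sites. Among HOX and TALE genes (11 genes) 1 of 5 stable sites was lost, at Pbx3. In the MYC network of partners and antagonists (10 genes) it was 6 of 16, 2 each at the MAX-binding antagonists Mxd1 and Mxi1 and 1 each at Mycn and Mxd3. In the MYB family with its coactivators (4 genes) it was 4 of 5, with 3 at Crebbp, the acetyltransferase coactivator, and 1 at Mybl2. Among PAR bZIP relatives (3 genes) 2 of 6 were lost, at Tef and Nfil3, and among the other self-renewal regulators (12 genes) 5 of 18, at Bmi1, Zbtb16, Ezh2, Men1 and Dot1l. Windows of Hoxa5, Hoxa7 and Hoxa10 overlap that of Hoxa9 and held no RUNX1 site. For CHD7, 1 of 22 stable sites in the 5 lists was lost (4.55%, at Gfi1, against 3.65%).

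Genes whose summed RUNX1 rank followed that of a member most closely over the 8 libraries were found among 4492 to 4495 genes with 5 or more RUNX1 sites. For Meis1 they were Anp32b (Pearson r = 0.991) and Jmjd1c (0.986), and for Hhex Gnaq (0.988) and Cd53 (0.985). For Myb they were Gdf15 (0.956) and Actb (0.943), and for Myc Tmem233 (0.963) and Dad1 (0.961). For Mecom they were Pde6h (0.922) and Cbx3 (0.913), and for Hlf F13a1 (0.990). These are descriptions over 8 points that share library and list length, picked as the highest of many genes, and carry no test. Hoxa9 has no RUNX1 rank to follow.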

How the data were processed

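RUNX1 (Abcam ab23980) and CHD7 (Abcam ab31824) ChIP-seq peak lists of 16 libraries were used, 8 per antibody. The labels name 17 samples, and the values of the 1 IgG sample were not analysed here. Per the submitters' processing notes, the authors used Bowtie2 2.0.6 and MACS2 2.0.10 on mm10. Each library has its own list, so peaks were called per sample. The background library of the calls is not given in the sources used here. Peaks carry a deposited score, the −log10 of the peak's p-value, and each list ends at the p-value threshold that the authors wrote in its peak names: 1e-09 for 5 and 1e-07 for 3 of the RUNX1 lists, and 0.01 for the 8 of CHD7. Such differences in threshold and length change which weak peaks are listed, so scores were used only as percentile ranks within a list.

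Overlapping peaks (1 bp or more) of autosomes 1 to 19 and the sex chromosomes formed 1 site, with Python 3.11.15, numpy 2.4.6, pandas 2.3.3 and SciPy 1.17.1. Gene positions and promoters came from RefSeq tables of GRCm38.p6. No exon or intron positions were used. Every site called in 2 or more libraries was tested with a two-sided exact permutation test of mean rank, with Benjamini-Hochberg adjustment over all of them, and the scripts were tested on simulated data. For each gene, up to 4 RUNX1 and 3 CHD7 sites with the highest mean rank without CM were named, with every site lost, gained or not overlapping in rank between groups. The 2 genes most like a member were also named, except 1 that is not reported here. Other sites are given to complete a locus and were chosen after their values were seen. The members, gene lists and this rule were chosen with earlier results of these data known. Replicate numbers are shared between groups. Deviations of same-numbered RUNX1 libraries correlated in 6 of 6 pairs of conditions (r = 0.17 to 0.46 over 17508 sites), so counts within replicate numbers are given beside the RUNX1 result. The labels do not say what a number stands for.

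Alternatives were equal list lengths, a score of at least 9, the pooled median score, an overlap of 0.5 of the shorter interval, windows of 5 and 100 kb, leaving out each library, the replicate block, and, chosen after seeing the data, the 4 CM against the 4 control libraries.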

Additional observations from a re-analysis of the deposited data

Results flagged for a closer look

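At 2 named sites, the ranks of both replicates differed with doxycycline one way in CM cells and the other way in control cells. The named sites numbered 23 for RUNX1 and 22 for CHD7. The share of all sites with this pattern is not given, so the 2 sites are descriptions only. The difference between these changes was not tested.

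RUNX1 at Mecom +275.5 kb had a mean rank of 65.0 in CM -Dox and 7.60 in CM +Dox, a change of -57.4. In control cells it was 56.0 without and 66.3 with doxycycline, a change of 10.3. The difference of the changes was -67.7. With equal list lengths the CM ranks overlapped, at 66.8 and 0.964 in CM -Dox and 15.2 and 0 in CM +Dox. Control -Dox replicate 1, part of the control change, is the library whose peak names carry a +Dox tag.

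CHD7 at Myb +9.6 kb had a mean rank of 45.7 in CM -Dox and 7.33 in CM +Dox, a change of -38.4, and 6.73 and 71.9 in control cells, a change of 65.2. The difference was -103.6. No RUNX1 peak overlapped this site.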

How the results depend on the processing

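The count of lost RUNX1 sites at the members, 1 as reported, was 0 with equal list lengths and again 1 at or above the pooled median score, where it was Meis1 +49.3 kb in place of Myc -1.9 kb. It was 2 within replicate number 1 and 4 within number 2 (replicate block), and 1 to 2 with a library left out. It was 2 without CM -Dox replicate 1 (adding Meis1 +56.3 kb), CM +Dox replicate 1 (adding Mecom +275.5 kb) or CM +Dox replicate 2 (adding Meis1 +49.3 kb). Gained RUNX1 sites, 0 as reported, were 2 with equal list lengths, 1 within number 2, and 0 to 1 with a library left out (1 without Control +Dox replicate 1, Mecom +174.6 kb). Lost CHD7 sites, 0 as reported, were 1 within each replicate number and 0 with any library left out. Gained CHD7 sites, 1 as reported, were 0 with equal list lengths, 0 at or above the pooled median score, 0 within 5 kb and 2 within 100 kb. They were 34 and 26 within replicate numbers 1 and 2, and 1 to 22 with a library left out. The 22 came without either CM +Dox library, since 1 library then stands for the condition. CHD7 deviations of same-numbered libraries correlated at -0.01 to 0.06, so CHD7 numbers were not read as pairs. Within replicate numbers the smallest exact p is 0.0625, and the block changed no other call.

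With equal list lengths the sign of the rank difference turned for RUNX1 at Mecom +179.2 kb (13.6) and Myb +7.3 kb (9.1) and CHD7 at Myc +32.8 kb (-1.5). With the pooled median score it turned for RUNX1 at Hhex +13.6 kb (-11.7). Between the 4 CM and 4 control libraries, the RUNX1 sign differed at Mecom +270.1 (3.0), +179.2 (1.2) and +176.8 kb (-6.7), Myb -26.0 kb (-8.0), and Hhex -6.0 (29.1) and +8.2 kb (42.7). The CHD7 sign differed at Mecom +177.0 (-8.3) and Myc +32.8 kb (-13.8). With a library left out the sign turned for RUNX1 at Mecom +179.2 kb (-24.3 to 4.3), Myb +7.3 kb (-32.6 to 10.3), Myb -26.0 kb (-8.9 to 12.5), Hhex +8.2 kb (-33.8 to 18.8) and Hhex +13.6 kb (-3.3 to 4.0). For CHD7 it turned at Mecom +178.9 kb (-24.3 to 4.7), Hlf +83.7 kb (-30.0 to 47.5), Myc +32.8 kb (-20.4 to 46.7) and Hhex -16.4 kb (-12.9 to 47.1). None of these differences passed a test as reported, and the cause of the turns was not tested. The 4 Meis1 RUNX1 sites with lower ranks kept their sign under every alternative run. Read depth is unknown and list length sets how many weak peaks are seen.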

Other observations

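The interval 1.5 to 2.1 Mb above the lower end of Myc, which the 50 kb windows do not reach, was looked at after the data had been seen. It held 20 RUNX1 sites, 6 of them called in all 6 libraries without CM. All 6 ranked lower in both CM +Dox libraries than in any of the 6 others, as 52.8% of all such sites did. The CM +Dox pair called 3 of the 6, 1 of the pair called 1, and 2 were lost, against 27.9% of all such sites. The most prominent, at +1.663 Mb, had ranks of 99.6 to 100 without CM and 92.8 and 97.2 in CM +Dox. The 2 lost sites had ranks of 82.5 to 85.1 in the control libraries and 58.7 and 78.1 in CM -Dox (+1.737 Mb), and of 18.2 to 82.2 without CM (+1.939 Mb). A site at +1.720 Mb was called only in the CM construct, at 82.0 and 84.8 in CM -Dox and 30 and 68.6 in CM +Dox. In the other direction, 1 of 5 RUNX1 sites called in both CM +Dox libraries ranked higher there than in the 6 others, against 25.3% of all such sites. It lay at +2.013 Mb, with ranks of 64 and 55.2 against at most 53.3.

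CHD7 had 107 sites in the same interval, 8 of them called in all 6 libraries without CM. One of the 8 was lost, against 3.65% of all such sites: CHD7 at +1.694 Mb, with ranks of 90.7, 92.5, 95.4, 78.7, 49.9 and 83.2 without CM. CHD7 at +1.663 Mb had ranks of 79.1 to 95.6 without CM and 35.9 and 37.2 in CM +Dox. At these 2 of the 8 sites the CHD7 ranks were lower in both CM +Dox libraries, as the RUNX1 ranks were, against 9.11% of all such CHD7 sites. Of the 6 stable CHD7 sites at the members 0 showed this, too few sites to set apart from that share. Of 12 CHD7 sites of the interval called in both CM +Dox libraries, 2 ranked higher there than in the 6 others, against 22.9% of all such sites. At 1 of them, +2.012 Mb, the CM +Dox ranks were 62.9 and 64.6 against at most 53.3. The difference between the far interval and the members was not tested.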
